A study of Mus musculus with 19 samples.

Results

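Integrins are the receptors by which cells hold on to the matrix around them, and laminins are the trimeric proteins that form the sheet of basement membrane under epithelium, around muscle fibers and fat cells and beneath vessel walls. An integrin is made of 1 alpha and 1 beta subunit, and the pair decides the ligand. A laminin is made of 1 alpha, 1 beta and 1 gamma chain. In the mammary gland the basal epithelial cells sit on laminin and hold it through Itga6 paired with Itgb4 in hemidesmosomes and through Itga3 and Itga6 paired with Itgb1. The transcripts of both families were taken from RNA sequencing of mouse mammary glands and HER2-driven mammary tumors. Members were the rows whose identifier belongs to a protein-coding gene with an integrin subunit or laminin chain symbol, and 36 of 46078 genes are described: 18 integrin alpha subunits, 8 integrin beta subunits and 10 laminin chains (5 alpha, 3 beta and 2 gamma).

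The study asked how mutant p53 in stromal fibroblasts bears on tumor development, and the 19 libraries came from 5 groups of female mice. MG-WT was 3 glands of age-matched wild-type mice. All other mice carried MMTV-neu, which drives the wild-type ERBB2 receptor in mammary epithelium. MG-NP and T-NP were 4 glands and 4 tumors with MMTV-neu, p53wm-R172H/+ and Fsp-Cre, in which Cre, expressed in fibroblasts, turns the conditional p53 allele into the R172H mutant. T-N was 4 tumors with MMTV-neu and Fsp-Cre. MG-N was 4 glands of which 1 (replicate 1) carried MMTV-neu and Fsp-Cre and 3 carried MMTV-neu and p53wm-R172H/+ without Cre, so T-N and MG-N differed in these alleles as well as in tissue. The MG-N and MG-NP glands were taken from tumor-bearing mice and held no malignant lesion. Strains were crossed (FVB, BALB/c and C57), and whether a gland and a tumor came from the same mouse was not given. The library names of T-NP replicates 1 and 2 share a number, so both tumors may come from 1 animal; they were the most alike of the T-NP pairs (chi-square per degree of freedom of their counts 39.2, against 72.1 to 142.7 in the other pairs) but differed by far more than sampling noise.

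Values are counts divided by a size factor per library (normalized counts). Libraries held 20899152 to 27262440 reads on genes, except MG-WT with 54677315 to 62645459, so low genes were read more precisely there. In bulk tissue, fewer cells of a type and less RNA per cell cannot be told apart. The tissue makeup differed widely. The 9 of 9 white adipocyte markers found took 1.60 to 2.17% of reads in the MG-N glands, 0.732 to 1.47% in the MG-NP glands, 0.00981 to 0.0154% in MG-WT and 0.00161 to 0.0369% in the tumors, with 2 of the 9 at 0 reads in T-N 2. The adipocyte hormone gene Adipoq read 1.71, 23.4 and 9.82 normalized counts in the 3 MG-WT libraries, so fat transcripts were nearly absent from the glands labelled wild-type. The 9 of 9 luminal epithelial markers took 0.316 to 0.361% of reads in MG-WT, 0.0261 to 0.116% in MG-N and MG-NP, and 0.354 to 0.680% in tumors. The 8 of 8 basal epithelial markers took 0.219 to 0.251% of reads in MG-WT, 0.0240 to 0.0808% in MG-N and MG-NP, and 0.00550 to 0.0199% in tumors. The 20 of 20 skeletal muscle markers took 10.9% and 6.26% of reads in MG-NP 2 and MG-NP 4, 2.28% in MG-NP 1, and at most 0.142% in any library outside MG-NP. What part these shifts have in the results was not tested except where a value is given.

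A RefSeq table of start regions (build GRCm38.p6, 250 bases before to 50 bases after the start) held 23 of the 36 members. Shown are 4 of them, chosen after their values were seen: Itgb1 and Lama5, higher in tumors than in glands in both genotypes, and Lama2 and Lamb1, lower in both. Capitals mark GGGCGG or its reverse complement CCGCCC, the GC box read by Sp-family factors, on either strand.
Itgb1, the common beta subunit, chr8:128685404-128685703, plus strand: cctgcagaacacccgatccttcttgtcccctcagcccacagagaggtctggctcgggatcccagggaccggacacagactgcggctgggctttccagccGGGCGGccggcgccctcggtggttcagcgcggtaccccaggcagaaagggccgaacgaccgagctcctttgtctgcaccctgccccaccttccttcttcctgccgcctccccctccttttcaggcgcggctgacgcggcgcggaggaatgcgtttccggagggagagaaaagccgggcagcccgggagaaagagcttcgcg
Lama5, the laminin alpha chain of mature epithelial basement membrane, chr2:180225810-180226109, minus strand: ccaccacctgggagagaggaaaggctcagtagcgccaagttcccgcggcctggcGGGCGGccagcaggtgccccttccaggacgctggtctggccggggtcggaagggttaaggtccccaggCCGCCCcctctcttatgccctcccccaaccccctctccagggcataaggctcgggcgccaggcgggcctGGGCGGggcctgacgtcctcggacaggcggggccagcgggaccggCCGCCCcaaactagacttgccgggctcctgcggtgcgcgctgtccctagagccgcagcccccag
Lama2, the alpha chain of muscle basement membrane, chr10:27616893-27617192, minus strand: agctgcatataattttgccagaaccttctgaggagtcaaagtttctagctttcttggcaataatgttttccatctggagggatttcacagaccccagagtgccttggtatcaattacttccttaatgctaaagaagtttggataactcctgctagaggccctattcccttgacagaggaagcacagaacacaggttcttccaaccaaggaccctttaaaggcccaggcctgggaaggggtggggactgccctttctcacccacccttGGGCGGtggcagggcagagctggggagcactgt
Lamb1, a widely expressed beta chain, chr12:31265043-31265342, plus strand: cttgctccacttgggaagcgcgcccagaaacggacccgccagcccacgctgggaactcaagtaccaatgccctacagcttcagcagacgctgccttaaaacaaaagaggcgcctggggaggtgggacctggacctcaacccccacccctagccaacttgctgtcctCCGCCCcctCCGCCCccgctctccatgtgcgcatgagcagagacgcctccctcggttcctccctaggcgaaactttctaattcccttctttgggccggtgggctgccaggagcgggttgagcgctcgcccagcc
These windows held 1 GC box in Itgb1, 4 in Lama5, 1 in Lama2 and 2 in Lamb1. The letters occurred in at least 1 window of 11 of the 23 members and in 35.7% of all 32851 windows. A match is a description of the letters only.

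**Figure D1:**
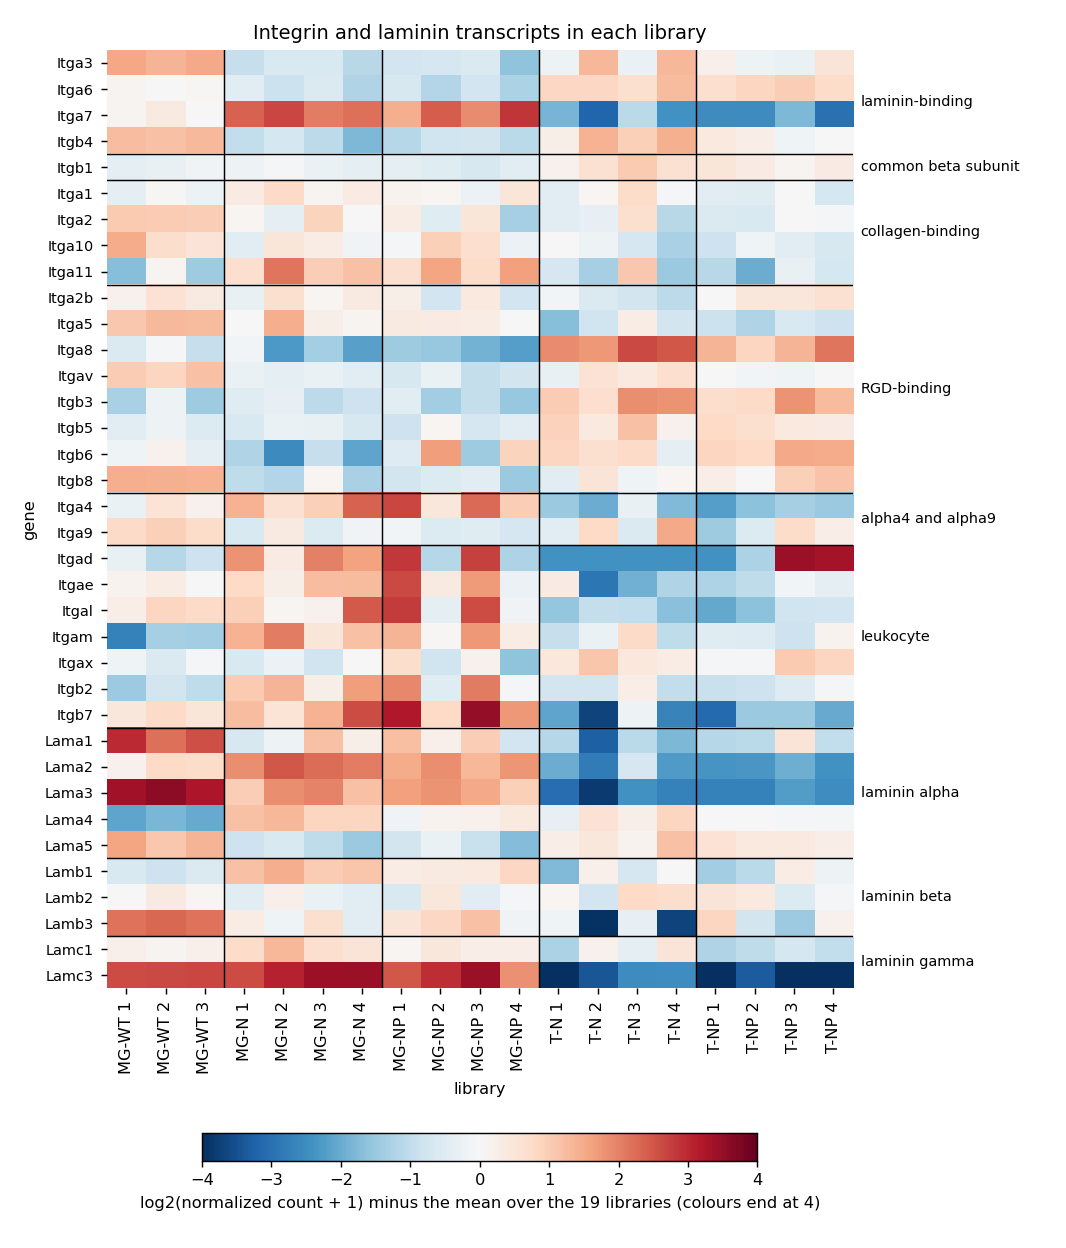
Heat map of the 36 integrin and laminin genes (rows, grouped by role) in the 19 libraries (columns, grouped by tissue and genotype). Color gives log2(normalized count + 1) minus the gene's mean over the 19 libraries. Itga7, Lama2, Lama3 and Lamc3 are blue in all 8 tumors, Itga8 and Itgb3 are red there, and Itga4, Itgal and Itgb7 are reddest in MG-N 4, MG-NP 1 and MG-NP 3.

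Per kilobase of exon, Itgb1 led the 36 genes in every group, with 2726 ± 226 normalized counts per kb (SD, n = 3) in MG-WT, 2801 ± 291 (n = 4) in MG-N, 2349 ± 176 (n = 4) in MG-NP, 5104 ± 1254 (n = 4) in T-N and 4046 ± 424 (n = 4) in T-NP. Itgb1 is the beta subunit that most matrix-binding alpha subunits share. The next in MG-WT was Lama5 at 1470 ± 256 per kb, in MG-N and MG-NP it was Lamc1 at 1758 ± 478 and 1172 ± 123, and in T-N and T-NP it was Itga6 at 2510 ± 491 and 2350 ± 228. The gene in second place overlapped with the third between libraries in 4 of the 5 groups: Lama5 with Itga6 in MG-WT, Lamc1 with Lamb1 in MG-N, Lamc1 with Lamb2 in MG-NP and Itga6 with Itgb5 in T-N. In T-NP, Itga6 (2115 to 2627 per kb) lay above Itgb5 (1480 to 2073) in every library. Itgad, a subunit of myeloid cells, was the lowest member in the 4 groups other than T-NP, averaging 0.513 to 4.13 per kb in the gland groups and 0 in the 4 T-N libraries. In T-NP the lowest was Lamc3 at 1.28 per kb, below Itgad at 6.21.

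Tumors and the glands of tumor-bearing mice differed in 27 members in the N genotype and in 24 in the NP genotype, and 21 of these were called in both. In T-N against MG-N, 11 of the 35 members tested rose and 16 fell (limma on log2(normalized count + 1), Benjamini-Hochberg adjusted p under 0.05 over all genes tested), where 23.5% of all genes tested rose and 27.8% fell. In T-NP against MG-NP, 10 of 36 rose and 14 fell, where 26.2% of all genes rose and 29.3% fell. The shares of members that rose (31.4% and 27.8%) were near those backgrounds, and the shares that fell were 45.7% and 38.9%. The median log2 fold change of the members was -0.72 and -0.36, and that of all genes tested -0.05 and -0.07. The 2 comparisons share no library. 9 members rose in both (Itga3, Itga6, Itga8, Itgav, Itgb1, Itgb3, Itgb4, Itgb5 and Lama5), 12 fell in both (Itga4, Itga7, Itga11, Itgae, Itgal, Itgam, Itgb7, Lama2, Lama3, Lamb1, Lamc1 and Lamc3), and 0 were called in opposite directions. The share of all genes called in both was not computed, so whether members agreed more than other genes was not tested. Laminins fell more often than integrins, with 7 and 5 of 10 laminins lower against 9 of 25 and 9 of 26 integrins, a difference that was not tested. With the skeletal muscle score as a term, 5 members rose and 9 fell in T-NP against MG-NP. Over all 17880 genes, 2007 rose and 2635 fell with the term, against 4689 and 5240 without it. Itga3, Itgb1, Itgb4, Lama5 and Lamb1 were among the members no longer called. The score did not overlap between these groups (mean log2 level of the markers 3.22 to 8.21 in T-NP and 9.02 to 16.84 in MG-NP). A lost call therefore does not show what part muscle has. Without T-NP 2, 9 members fell. With only MG-NP 1 and 3, chosen after seeing the data, 11 rose and 15 fell. Over all genes, 4952 fell without T-NP 2, and 4760 rose and 5395 fell with only MG-NP 1 and 3.

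**Figure D2:**
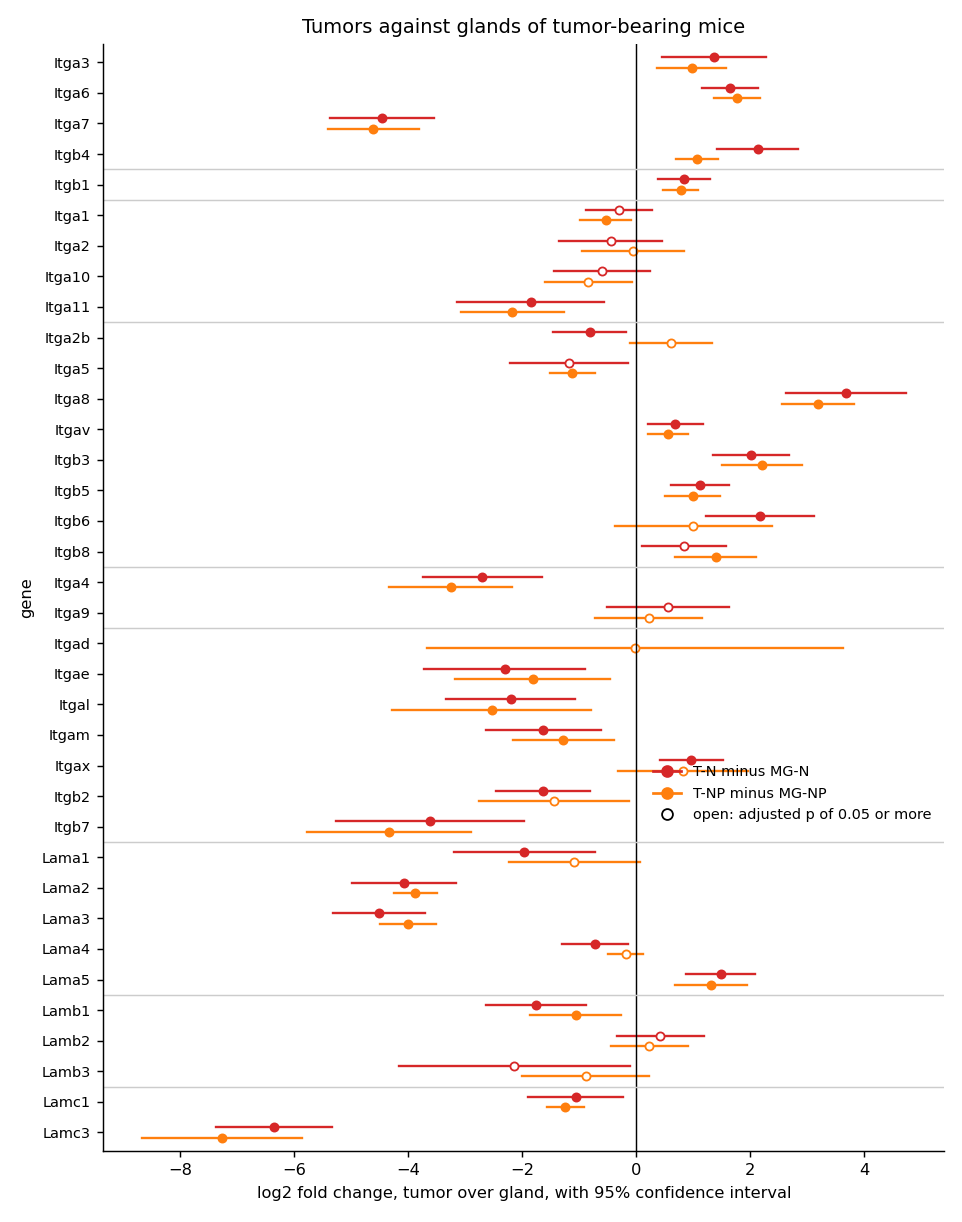
Log2 fold change of each integrin and laminin gene, tumor over gland, with its 95% confidence interval, for T-N minus MG-N (red) and T-NP minus MG-NP (orange). Filled points passed an adjusted p of 0.05, open points did not; the points of both genotypes lie on the same side of 0 for the 21 genes called in both, from Lamc3 at -6.35 and -7.27 to Itga8 at 3.68 and 3.19.

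Among the laminin-binding integrins, the epithelial subunits rose in tumors and the muscle subunit fell. Itga6, the alpha subunit of the hemidesmosome receptor, stood at 12913, 12224 and 12401 normalized counts in MG-WT, at 9118, 6673, 8103 and 5237 in MG-N, at 7708, 5344, 7170 and 5018 in MG-NP, at 21444, 21465, 18686 and 29009 in T-N, and at 19089, 21998, 23706 and 20046 in T-NP. All 8 tumors lay above all 11 glands, and MG-WT lay between the tumors and the other glands. The log2 fold change was 1.65 ± 0.21 (SE; adjusted p = 0.000469) in T-N against MG-N and 1.77 ± 0.18 (adjusted p = 8.91e-05) in T-NP against MG-NP.

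Its partner Itgb4 read 5648, 5442 and 5900 in MG-WT, 1223, 1469, 1172 and 698 in MG-N, 1083, 1396, 1449 and 1132 in MG-NP, 2853, 6314, 4653 and 6475 in T-N, and 3135, 2897, 2146 and 2440 in T-NP. Tumors of both genotypes exceeded their glands without overlap, and of the 8 tumors T-N 2 and T-N 4 lay above MG-WT. Itgb4 rose by a log2 fold change of 2.13 ± 0.31 (adjusted p = 0.000798) in T-N and of 1.06 ± 0.16 (adjusted p = 0.000786) in T-NP. The rise was smaller in the NP genotype (interaction -1.07, 95% CI -1.85 to -0.28, unadjusted p = 0.0113 by limma), a difference that did not pass over all genes (adjusted p = 0.518). Per kilobase, Itga6 outnumbered Itgb4 in every library, by a median ratio of 1.75 in MG-WT, 3.30 in T-N and 6.14 in T-NP.

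Itga3, which pairs with Itgb1 on laminins of epithelial basement membrane, also rose in both comparisons of tumors with their glands. It read 4556, 4051 and 4472 in MG-WT, 822, 1027, 1015 and 726 in MG-N, 925, 975, 1041 and 510.1 in MG-NP, 1363, 3946, 1302 and 3967 in T-N, and 1807, 1349, 1305 and 2241 in T-NP. Tumors lay between the glands of tumor-bearing mice and MG-WT, with T-N 2 and T-N 4 close to MG-WT. Its log2 fold change was 1.37 in T-N (adjusted p = 0.0197, and 0.0545 without MG-N 4) and 0.97 in T-NP (adjusted p = 0.0136). Itgb1 itself read 10364, 10861 and 12151 in MG-WT, 11504, 13007, 11059 and 10162 in MG-N, 10398, 9592, 8649.8 and 9703 in MG-NP, 14996, 20574, 27471 and 20273 in T-N, and 18488, 16654, 14264 and 16633 in T-NP. It rose by 0.84 (adjusted p = 0.00766) and 0.78 (adjusted p = 0.00144). No tumor overlapped a gland for Itgb1. The luminal epithelial markers moved the same way: 7 of 9 rose in T-N against MG-N and 8 of 9 in T-NP against MG-NP, with 1 lower in each.

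Itga7, the laminin receptor of muscle fibers and vessel walls, fell in both. It read 444, 529 and 421 in MG-WT, 2149, 2631, 1707 and 1934 in MG-N, 1139, 2237, 1534 and 2993 in MG-NP, 114, 45.3, 196 and 75.9 in T-N, and 71.8, 72, 118 and 51.2 in T-NP. No tumor reached any gland. Its log2 fold changes were -4.46 ± 0.40 (adjusted p = 0.00011) and -4.61 ± 0.35 (adjusted p = 2.65e-05). All 9 adipocyte markers fell with it in both comparisons, and of the 20 skeletal muscle markers 1 fell in T-N and 20 in T-NP. With the skeletal muscle score as a term, the log2 fold change of Itga7 in T-NP was -4.05 (adjusted p = 0.00458).

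The subunits that bind the RGD motif of fibronectin, vitronectin, osteopontin and latent TGF-beta gave 5 rises and 1 fall among 8 in each comparison. Itga8, which pairs with Itgb1 and binds nephronectin, rose the most of all members. It read 1677, 2404 and 1333 in MG-WT, 2364, 517, 976 and 562 in MG-N, 938, 885, 687 and 554 in MG-NP, 9477, 8434, 15953 and 14252 in T-N, and 6537, 4628, 6492 and 11231 in T-NP. Every tumor was above every gland, and MG-N 1, the gland with Fsp-Cre, was the highest of its group. This was a log2 fold change of 3.68 ± 0.47 (adjusted p = 0.000422) and 3.19 ± 0.28 (adjusted p = 4.88e-05).

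Itgb3, the partner of Itgav in the vitronectin receptor and of Itga2b on platelets, read 761, 1623 and 694 in MG-WT, 1340, 1493, 910 and 1047 in MG-N, 1391, 717, 972 and 659 in MG-NP, 3813, 2963, 6830 and 6582 in T-N, and 3057, 3218, 6541 and 4557 in T-NP. Tumors again lay above all glands, with log2 fold changes of 2.01 ± 0.30 (adjusted p = 0.00082) and 2.21 ± 0.31 (adjusted p = 0.000467). The platelet subunit Itga2b was called higher in neither comparison of tumors with their glands, and it read 105 to 339 in all 19 libraries. Per kilobase, Itgb3 exceeded Itga2b by a median of 33.5 times in T-N and 12.8 times in T-NP. The median was 2.84 in MG-WT, 3.85 in MG-N and 4.89 in MG-NP. Itga2b fell in T-N against MG-N (log2 fold change -0.81, adjusted p = 0.0387). That call was lost without any 1 of MG-N 2, 3 and 4 and T-N 2, 3 and 4 (adjusted p = 0.0591 to 0.106). In T-NP against MG-NP, Itga2b was not called but averaged higher, at 288 against 199. It read 216, 303, 297 and 336 in T-NP and 256, 127, 286 and 128 in MG-NP.

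Itgav and Itgb5, which pair with each other, rose less. Itgb5 read 3181, 3683 and 2862 in MG-WT, 2760.1, 3503, 3419 and 2716 in MG-N, 2383, 4483, 2653 and 3182 in MG-NP, 8030.3, 5560.1, 9428 and 4804 in T-N, and 7364, 6522, 5559 and 5259 in T-NP. Every tumor was above every gland, with a log2 fold change of 1.12 (adjusted p = 0.00357) in T-N and 0.99 (adjusted p = 0.00425) in T-NP. Itgav read 9575, 8605 and 10720.0 in MG-WT, 3936, 3611, 3948 and 3524 in MG-N, 3044, 3977, 2469.5 and 2886 in MG-NP, 3852, 7143, 6203 and 7684 in T-N, and 4689, 4434, 4215 and 4723 in T-NP. T-N 1 lay within the MG-N range, and no tumor reached MG-WT. Itgav rose by 0.68 (adjusted p = 0.0254) and 0.57 (adjusted p = 0.013). The T-N call of Itgav was lost without any 1 of MG-N 2, MG-N 4, T-N 2, T-N 3 and T-N 4 (adjusted p = 0.0508 to 0.0652).

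The TGF-beta-activating partners Itgb6 and Itgb8 were each called in 1 genotype. Itgb6 read 366, 457 and 312 in MG-WT, 176, 69, 214 and 93.7 in MG-N, 287, 1305, 153 and 761 in MG-NP, 736, 636, 701 and 315 in T-N, and 742, 705, 1172 and 1154 in T-NP. Within MG-NP it was high in replicates 2 and 4, the muscle-rich glands. It rose in T-N (log2 fold change 2.17, adjusted p = 0.00291) and had a log2 fold change of 1.0 in T-NP (adjusted p = 0.188). Itgb8 read 4092, 3983 and 3929 in MG-WT, 741, 665, 1571 and 611 in MG-N, 891, 1012, 1092 and 533 in MG-NP, 1098, 2134, 1312 and 1558 in T-N, and 1778, 1499, 2894 and 3265 in T-NP. Its highest values were those of MG-WT. Itgb8 rose in T-NP (log2 fold change 1.40, adjusted p = 0.00522) and had 0.83 in T-N (adjusted p = 0.0582). The genotype difference did not pass for Itgb6 (-1.17 on the log2 scale, 95% CI -2.84 to 0.50, adjusted p = 0.766). Itga5, the fibronectin receptor subunit, read 1277, 1490.2 and 1477 in MG-WT, 623, 1669, 715 and 652 in MG-N, 792, 774, 746 and 603 in MG-NP, 189, 351, 756 and 365 in T-N, and 339.7, 263, 399 and 347 in T-NP. It fell in T-NP (log2 fold change -1.12, adjusted p = 0.000829) and had a like value of -1.18 in T-N (adjusted p = 0.0557), where T-N 3 and MG-N 2 stood above the rest of their groups.

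**Figure D3:**
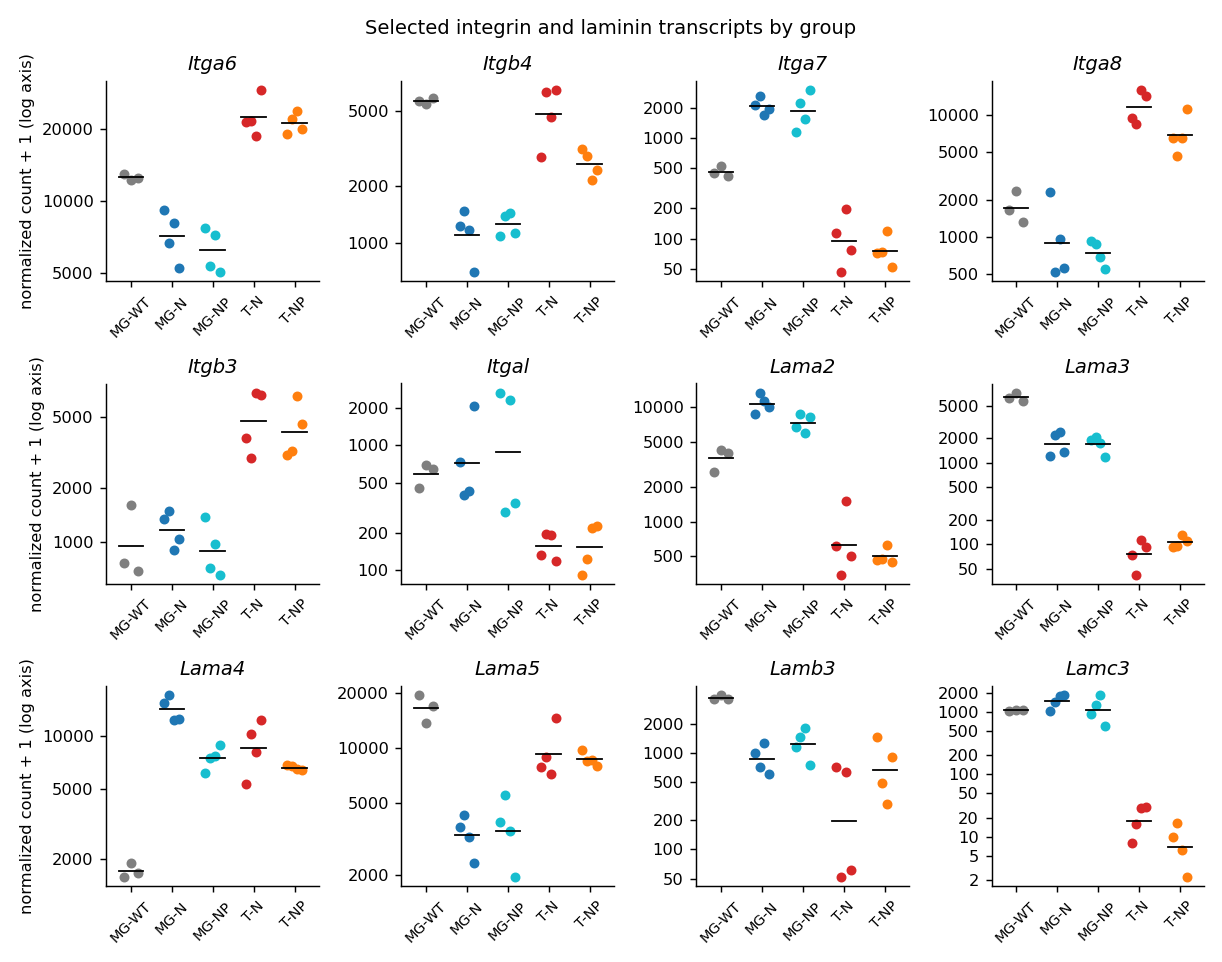
Normalized counts + 1 on log axes of 12 integrin and laminin genes in each library, by group; the black line is the mean of the log2 values. Itga6, Itga8 and Itgb3 in tumors lie above all glands, and Itga7, Lama2, Lama3 and Lamc3 lie below all glands, whereas Itgb4 reaches the MG-WT level in T-N 2 and T-N 4 and Lamb3 splits the tumors.

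Of the 4 collagen-binding subunits, 0 rose in either comparison, 1 fell in T-N and 2 fell in T-NP. Itga11, a fibroblast collagen receptor, read 80.6, 285 and 98.2 in MG-WT, 428, 1172, 521 and 606 in MG-N, 413, 801, 441 and 823 in MG-NP, 167, 105, 561 and 93.4 in T-N, and 123, 65.9, 216 and 162 in T-NP. It was lower in all tumors than in the glands of tumor-bearing mice except T-N 3, with log2 fold changes of -1.85 (adjusted p = 0.0242) and -2.17 (adjusted p = 0.00202). The T-N call was lost without MG-N 2, MG-N 4, T-N 2 or T-N 4 (adjusted p = 0.0522 to 0.0669). The fibroblast markers fell in 5 of 7 and 4 of 7 cases. Itga1, a collagen receptor of mesenchymal cells, read 1375, 1836 and 1517 in MG-WT, 2234, 3022, 1919 and 2256 in MG-N, 1991, 1901, 1519 and 2517 in MG-NP, 1311, 1874, 2997 and 1713 in T-N, and 1301, 1278, 1773 and 1111 in T-NP. It fell in T-NP (-0.54, adjusted p = 0.0428) and was lost in 6 of 8 runs that left out 1 library (MG-NP 1, 2 and 4, T-NP 1, 2 and 4, adjusted p up to 0.11). Its T-N value was -0.30 (adjusted p = 0.342). Itga2 and Itga10, receptors of epithelium and cartilage, were called in neither comparison, with log2 fold changes of -0.84 to -0.05. Of the exon bases of Itga10, 33.5% lie in an overlapping gene model that is also in the table, so its reads may be split.

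Most integrins of leukocytes were lower in tumors than in the glands of tumor-bearing mice. Of the 6 tested in T-N, 5 fell and 1 rose, and of the 7 tested in T-NP, 4 fell. Itgal, the alpha subunit of the lymphocyte receptor for ICAMs, read 457, 696 and 642 in MG-WT, 729, 401, 430 and 2072 in MG-N, 2641, 291, 2306 and 346 in MG-NP, 131, 194, 190 and 118 in T-N, and 90.8, 122, 217 and 223 in T-NP. MG-N 4, MG-NP 1 and MG-NP 3 stood far above the other glands, and no tumor reached a gland. The log2 fold change was -2.20 ± 0.50 (adjusted p = 0.0061) and -2.53 ± 0.77 (adjusted p = 0.0208), the second lost without T-NP 1 or T-NP 2 (adjusted p = 0.0554 and 0.0526).

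Itgb7, which joins Itga4 or Itgae in gut-homing lymphocytes, read 304, 372 and 310.0 in MG-WT, 516, 324, 572 and 1348 in MG-N, 2026, 385, 2518 and 727 in MG-NP, 50, 15.8, 192 and 33.8 in T-N, and 24.7, 78.1, 77.9 and 53.7 in T-NP. No tumor reached a gland, and the log2 fold changes were -3.62 (adjusted p = 0.00353) and -4.33 (adjusted p = 0.000606). Itga4, the VCAM receptor subunit of lymphocytes, read 495, 861 and 675 in MG-WT, 1560.3, 901, 1142 and 3075 in MG-N, 3779, 809, 2852 and 1184 in MG-NP, 214, 151, 486 and 174 in T-N, and 128, 192, 234 and 214 in T-NP. It too was highest in MG-N 4, MG-NP 1 and MG-NP 3. Itga4 fell by -2.70 (adjusted p = 0.00161) and -3.25 (adjusted p = 0.000606). The B cell markers, 5 of 5 found, took 0.0253 to 0.0508% of reads in those 3 glands and at most 0.0152% in any other library. The T cell markers, 6 of 6 found, took 0.0144 to 0.0211% in them and at most 0.00378% elsewhere. In tumors the T cell markers fell in 6 of 6 cases in both comparisons and the B cell markers in 4 and 5 of 5.

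The remaining leukocyte subunits followed less closely. Itgae, of intraepithelial T cells, read 161, 182.6 and 149 in MG-WT, 259.8, 175, 347 and 356 in MG-N, 923, 191.3, 479 and 127 in MG-NP, 184, 19, 38.4 and 64.2 in T-N, and 61.7, 72, 136 and 111 in T-NP. T-N 1 and T-NP 3 overlapped their glands. Itgae fell by -2.31 (adjusted p = 0.0138) and -1.82 (adjusted p = 0.0295), the second lost without any 1 of MG-NP 1, MG-NP 3, T-NP 1, T-NP 2 and T-NP 4 (adjusted p = 0.05 to 0.0737). Itgam, of macrophages and neutrophils, read 101.1, 264 and 250.6 in MG-WT, 1732, 2739.9, 927 and 1485 in MG-N, 1704, 687, 2193 and 812 in MG-NP, 348, 550.0, 1126 and 327 in T-N, and 478, 466, 375 and 725 in T-NP. T-N 3 and T-NP 4 overlapped their glands. Itgam fell by -1.63 (adjusted p = 0.0145) and -1.27 (adjusted p = 0.0214), the second lost without MG-NP 1, T-NP 2 or T-NP 3 (adjusted p = 0.0516 to 0.057). A readthrough gene model shares 68.7% of the exon bases of Itgam, so its counts depend on how such reads were assigned. Itgb2, the partner of Itgal, Itgam and Itgax, read 276, 456 and 376 in MG-WT, 1586, 1964, 904 and 2466 in MG-N, 2916, 544, 3245 and 733 in MG-NP, 461, 447, 925 and 389.8 in T-N, and 410.3, 431, 540.3 and 722 in T-NP. It fell in T-N (-1.63, adjusted p = 0.00559) and had -1.44 in T-NP (adjusted p = 0.0616). Itgax, of dendritic cells and macrophages, read 486, 365 and 527 in MG-WT, 358, 457, 314 and 539.7 in MG-N, 877, 313, 605 and 176 in MG-NP, 725, 1173, 721 and 664 in T-N, and 517, 519.7, 1111 and 975 in T-NP. It rose in T-N without overlap (log2 fold change 0.97, adjusted p = 0.00986), and had 0.83 in T-NP (adjusted p = 0.19). Of the 8 macrophage markers, 4 and 3 fell and 0 rose. Itgad was not tested in T-N, and in T-NP it was read only in 3 tumors, at 57.1 and 53.7 in replicates 3 and 4 and at 1.22 in replicate 2. Itga9, a receptor of smooth muscle and epithelium, varied from 445 to 3415 among tumors and was called in neither comparison.

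Of the laminin alpha chains, Lama5 rose while Lama2 and Lama3 fell. Lama3, the alpha chain of the hemidesmosome-anchoring laminin to which Lamb3 gives the beta chain, read 6167, 7246 and 5704 in MG-WT, 1206, 2209, 2394 and 1364 in MG-N, 1887, 2083, 1744 and 1167 in MG-NP, 72.7, 41.1, 112 and 91.0 in T-N, and 90.8, 92.7, 129 and 107 in T-NP. The groups formed 3 separate steps, wild-type glands, glands of tumor-bearing mice and tumors. The log2 fold change was -4.51 ± 0.35 (adjusted p = 6.84e-05) and -4.0 ± 0.22 (adjusted p = 7.95e-06).

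Its beta partner Lamb3 split the tumors, with 717, 50.6, 636 and 60.7 in T-N and 1471, 483, 294 and 911 in T-NP, against 596 to 1802 in the glands of tumor-bearing mice. Its log2 fold change of -2.13 ± 0.89 in T-N and -0.88 ± 0.49 in T-NP did not pass (adjusted p = 0.0728 and 0.155). The basal epithelial markers fell in 8 of 8 cases in T-N and 7 of 8 in T-NP, and Krt5 read 3.41 to 26.3 in tumors against 512 to 1691 in their glands.

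Lama2, which with Lamb1 or Lamb2 and Lamc1 surrounds muscle fibers, fat cells and nerve sheaths, read 2713, 4190 and 4013 in MG-WT, 8678, 13355, 11220 and 10019 in MG-N, 6749, 8714, 5997 and 8184 in MG-NP, 611, 346, 1516 and 504 in T-N, and 466, 476, 626 and 446 in T-NP. It peaked in the glands of tumor-bearing mice and was lowest in tumors without overlap. The log2 fold change was -4.07 ± 0.40 (adjusted p = 0.000151) and -3.87 ± 0.17 (adjusted p = 3.96e-06).

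Lama5 read 19513, 13709 and 16984 in MG-WT, 3667, 4311, 3235 and 2340 in MG-N, 3938, 5484, 3521 and 1951 in MG-NP, 7820, 8903, 7165 and 14659 in T-N, and 9692, 8517, 8611 and 7945 in T-NP. Tumors exceeded their glands and only T-N 4 reached the MG-WT range. Its log2 fold change was 1.48 ± 0.26 (adjusted p = 0.00201) and 1.31 ± 0.28 (adjusted p = 0.0042). Lama4, the alpha chain of vessels and fat, read 1582, 1899 and 1677 in MG-WT, 15352, 16945, 12329 and 12336 in MG-N, 6133, 7498, 7676 and 8883 in MG-NP, 5351, 10151, 8037 and 12177 in T-N, and 6829, 6695, 6477 and 6369 in T-NP. MG-WT was the lowest group and MG-N the highest. Lama4 fell in T-N against MG-N (-0.72, adjusted p = 0.0419), with an adjusted p of 0.0587 to 0.104 without any 1 of MG-N 1 to 4, T-N 1 and T-N 3. Its value in T-NP was -0.18 (95% CI -0.49 to 0.12, adjusted p = 0.276). All 8 endothelial markers fell in both comparisons. Lama1, an alpha chain best known from embryonic basement membrane, read 5364, 3135 and 4026 in MG-WT, 436, 595, 1521 and 802 in MG-N, 1569.9, 784, 1333 and 402 in MG-NP, 306, 69.5, 324 and 195 in T-N, and 306, 319.6, 977 and 342 in T-NP. It fell in T-N (-1.96, adjusted p = 0.0157) and had -1.08 in T-NP (adjusted p = 0.0989), where T-NP 3 stood above the other 3 tumors.

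Among the widely used beta and gamma chains, Lamb1 and Lamc1 fell and Lamb2 was not called. Lamb1 read 4425, 3827 and 4535 in MG-WT, 15459, 18778, 13591 and 14763 in MG-N, 8374, 8729.9, 8927 and 11936 in MG-NP, 2004, 7744, 4301 and 6707 in T-N, and 2611, 3195, 8367 and 5929 in T-NP. All tumors lay below the glands of their genotype. Its log2 fold change was -1.76 (adjusted p = 0.00551) and -1.06 (adjusted p = 0.03), the second lost without MG-NP 2, MG-NP 4, T-NP 1 or T-NP 2 (adjusted p = 0.0503 to 0.0831). The T-NP call was also lost by edgeR (adjusted p = 0.0558). By limma it was lost with T-NP 1 and 2 averaged (0.0755) and with only MG-NP 1 and 3 (0.118). With the skeletal muscle score as a term, the T-NP value was -0.27 (adjusted p = 0.743). Lamc1, the gamma chain of most laminins, read 9262, 8689 and 9306 in MG-WT, 13429, 20361, 12802 and 11578 in MG-N, 8502, 10991, 9722 and 9554 in MG-NP, 3314, 9000.2, 6248 and 11404 in T-N, and 3488, 3943, 4886 and 4094 in T-NP. T-N 4 came close to the lowest MG-N gland. Lamc1 fell by -1.06 (adjusted p = 0.0389) and -1.24 (adjusted p = 0.000174), the first lost without any 1 of MG-N 1 to 4, T-N 1 and T-N 3 (adjusted p = 0.0537 to 0.101). Lamb2 read 3684 to 10906 in tumors and 4099 to 8726 in the glands of tumor-bearing mice (log2 fold change 0.42 and 0.23, 95% CI -0.34 to 1.19 and -0.44 to 0.90).

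Lamc3 fell the most of all members. It read 1030, 1050 and 1064 in MG-WT, 1025, 1414, 1804 and 1847 in MG-N, 930, 1292, 1841 and 598 in MG-NP, 6.82, 14.8, 28.3 and 29.2 in T-N, and 8.97, 15.9, 5.20 and 1.25 in T-NP. The 11 glands carried it at 598 or more and the 8 tumors at 29.2 or less. Fitted log2 fold changes were -6.35 ± 0.45 (adjusted p = 4.91e-05) and -7.27 ± 0.62 (adjusted p = 4.33e-05). T-NP 4 held 1 read of it, so the size of the T-NP change rests on few reads.

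**Figure D4:**
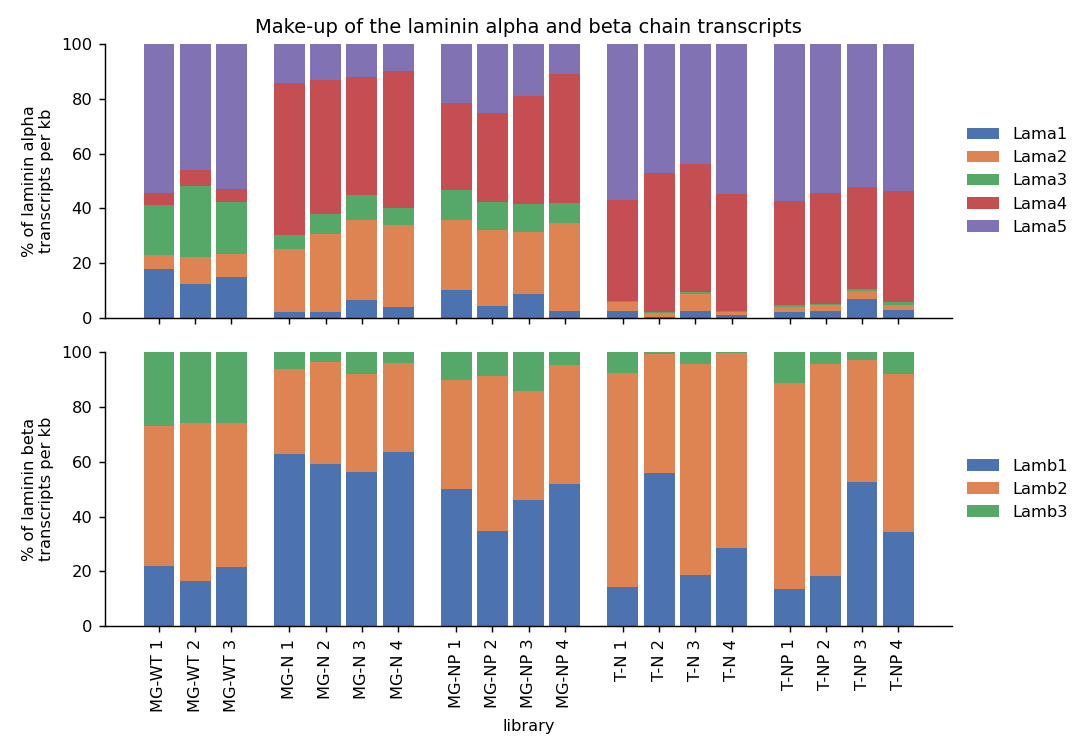
Share of each chain in the summed laminin alpha (top) and beta (bottom) transcripts per kb, in percent, for each of the 19 libraries. Lama5 and Lama4 make up almost all alpha chain transcripts in the 8 tumors, and Lamb1 and Lamb2 trade places from tumor to tumor.

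Set side by side per kilobase, the alpha and beta chains gave each tissue its own makeup. These shares sum to 100% within a chain type, so a fall of 1 chain raises the others. Lengths are the merged exons of all annotated transcripts (12068 bases for Lama4 and 11388 for Lama5). Which transcripts were used was not tested, so shares and ratios between chains depend on these lengths. In MG-WT the alpha transcripts were 51.2% ± 4.5 Lama5 (SD, n = 3), 21.0% ± 4.2 Lama3, 14.9% ± 2.6 Lama1, 7.93% ± 2.35 Lama2 and 5.04% ± 0.92 Lama4. In MG-N they were 49.4% ± 5.2 Lama4 (n = 4), 27.7% ± 3.0 Lama2 and 12.3% ± 1.8 Lama5. In MG-NP they were 37.7% ± 7.2 Lama4, 27.1% ± 3.9 Lama2 and 19.2% ± 6.0 Lama5. In tumors they were 50.7% ± 6.1 Lama5 in T-N and 54.5% ± 2.1 in T-NP, beside Lama4 at 44.2% ± 6.0 and 39.1% ± 1.7, and Lama3 was at 0.470% ± 0.219 and 0.699% ± 0.121. The median ratio of Lama5 to Lama4 was 10.7 in MG-WT, 0.261 in MG-N, 0.583 in MG-NP, 1.11 in T-N and 1.38 in T-NP. Among beta chains Lamb1 ranged from 14.4 to 56.0% in T-N and from 13.4 to 52.8% in T-NP, a wider range than in any gland group.

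Against wild-type glands, tumors differed in Itga8, Itgb3, Lama3 and Lamc3 in the same direction as against the glands of tumor-bearing mice, and in Lama5, Itga3, Itgav and Itgam in the opposite one. The 8 tumors were fitted as 1 group against the 3 MG-WT glands, which serve all 3 comparisons of this kind. Of 35 members tested, 9 rose and 16 fell, where 30.0% of all genes rose and 34.1% fell. Lama3 fell by a log2 fold change of -6.16 ± 0.29 (adjusted p = 1.7e-08), Lamc3 by -6.54 ± 0.68 (adjusted p = 6.16e-06), Lama1 by -3.83 ± 0.56 (adjusted p = 8.61e-05) and Lamb3 by -3.37 ± 0.92 (adjusted p = 0.00677). Itga8 (2.35, adjusted p = 9.11e-05), Itgb3 (2.22, adjusted p = 0.000116), Itga6 (0.80, adjusted p = 0.000377), Itgb5 (0.99, adjusted p = 0.000906) and Itgb1 (0.72, adjusted p = 0.00451) were higher here too. Lama4 rose by 2.13 ± 0.22 (adjusted p = 6.24e-06), from 1582 to 1899 in MG-WT to 5351 to 12177 in tumors. Itgb4, above the glands of tumor-bearing mice, was not called here, with a log2 fold change of -0.67 (95% CI -1.38 to 0.04). Lama5, Itga3, Itgav and Itgb8 were lower in tumors than in MG-WT, by -0.89, -1.17, -0.88 and -1.14 (adjusted p = 0.00187, 0.0144, 0.00316 and 0.0048), so their direction depends on which gland is the reference. Of these, Itga3 had an adjusted p of 0.0504 without MG-WT 1. Itgam, lower in tumors than in the glands of tumor-bearing mice, was called higher than in MG-WT. It averaged 549 in tumors against 205 in MG-WT, with an adjusted p of 0.0581 without MG-WT 1. The basal markers fell in 8 of 8 cases, the macrophage markers rose in 8 of 8 and the adipocyte markers rose in 2 of 9.

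The glands of tumor-bearing mice themselves differed from wild-type glands. In MG-N against MG-WT, 12 of 36 members rose and 13 fell, where 30.0% and 29.2% of all genes did. In MG-NP against MG-WT, 7 of 35 rose and 13 fell, where 22.4% and 24.0% of all genes did, and with only MG-NP 1 and 3 those counts were 13 and 14. Over all genes, that choice of glands gave 5004 rises and 4919 falls of 19272. The members that rose in both were Lama2, Lama4, Lamb1, Itga7, Itga11, Itgam and Itgb2, the last losing its MG-NP call without any 1 of MG-WT 1 to 3, MG-NP 1 and MG-NP 3 (adjusted p = 0.0777 to 0.142). Lama4 rose by a log2 fold change of 3.04 ± 0.15 (adjusted p = 2.9e-06) in MG-N and 2.13 ± 0.15 (adjusted p = 0.000142) in MG-NP, Lama2 by 1.58 (adjusted p = 0.000289) and 1.04 (adjusted p = 0.0061), and Lamb1 by 1.87 (adjusted p = 2.09e-05) and 1.14 (adjusted p = 0.0015). Itga7 rose by 2.17 and 2.00 (adjusted p = 2.37e-05 and 0.00262), Itga11 by 2.26 and 2.16 (adjusted p = 0.00431 and 0.00964), and Itgam by 3.08 and 2.67 (adjusted p = 0.000489 and 0.00528). Among the members that fell in both were Itgb4 by -2.36 and -2.17, Itga3 by -2.29 and -2.39, Lama5 by -2.32 and -2.25, Lama3 by -1.88 and -1.91, Lamb3 by -2.12 and -1.61, and Itgb8 by -2.27 and -2.23. The largest adjusted p among these 6 was 0.000397 in MG-N and 0.00392 in MG-NP. Beside these values, 9 of 9 adipocyte markers rose, and 9 of 9 luminal and 8 of 8 basal markers fell, in both comparisons. Macrophage markers rose in 8 of 8 and 6 of 8 cases, and skeletal muscle markers in 16 and 20 of 20. With the skeletal muscle score as a term, 4 members rose and 3 fell in MG-NP against MG-WT. Over all 19065 genes, 950 rose and 1298 fell with the term, against 4268 and 4585 without it. The members named above that lost their call were Itga7 (adjusted p = 0.348), Itga11 (0.598), Lama2 (log2 fold change 0.35, adjusted p = 0.604), Lamb1 (0.142), Itga3 (0.0883), Lama5 (0.116), Lama3 (0.0674), Lamb3 (log2 fold change -0.62, adjusted p = 0.498) and Itgb8 (0.102). Lama4, Itgam, Itgb2 and Itgb4 were still called (largest adjusted p = 0.0249). The muscle score did not overlap between these groups (mean log2 level of the markers 3.74 to 3.93 in MG-WT and 9.02 to 16.84 in MG-NP). A lost call therefore does not show what part muscle has.

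Between the genotypes, no member was called by the main test, which in the glands called none of the genes tested. In MG-NP against MG-N, 0 of 36 members were called by limma (5 at an unadjusted p under 0.05), where 0% of all 18563 genes were called. DESeq2 on the recovered reads called Lama4 (-0.88, adjusted p = 0.000447), Lamb1 (-0.69, adjusted p = 0.0124) and Itgb6 (2.22, adjusted p = 0.0255), where it called 3.93% of all genes, and edgeR called 0. The paper also used DESeq2, reports genes that differ between these glands, and lists Lama4 among the secretory genes lower in the NP glands. Lama4 read 15352, 16945, 12329 and 12336 in the 4 MG-N glands, against 6133, 7498, 7676 and 8883 in the MG-NP glands, so the groups did not overlap, and its limma log2 fold change was -0.91 (95% CI -1.30 to -0.53, adjusted p = 0.31). Lamb1 did not overlap either, at -0.73 (95% CI -1.11 to -0.34, adjusted p = 0.31). With the skeletal muscle score as a term in the limma fit, Lama4 had -1.07 (adjusted p = 0.257) and Lamb1 -0.88 (adjusted p = 0.279), while the limma value of Itgb6 went from 1.86 to 0.20 (adjusted p = 0.923), and 0 of 20 muscle markers were called. The 7 fibroblast markers had a mean log2 level of 12.4 to 13.17 in MG-NP against 13.39 to 14.68 in MG-N, with 0 of 7 called. The 9 adipocyte markers took 0.732 to 1.47% of reads in MG-NP against 1.60 to 2.17% in MG-N, with 0 of 9 called. Neither of these ranges overlapped between the genotypes, but each list overlapped on the other measure. The fibroblast markers took 0.207 to 0.624% of reads in MG-NP against 0.495 to 1.79% in MG-N. The adipocyte markers had a mean log2 level of 13.66 to 15.05 in MG-NP against 15.01 to 15.23 in MG-N. The part of these markers in the values was not tested. Of the MG-N glands 3 carried the conditional allele without Cre, the part of which was not tested.

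In T-NP against T-N, 0 of 35 members were called by limma (3 at an unadjusted p under 0.05), where 0.0421% of all genes were called. DESeq2 called Itga2b alone (0.97, adjusted p = 0.0383), where it called 0.721% of all genes, and edgeR called 0. Itga2b read 201.1, 148, 130 and 105 in T-N and 216, 303, 297 and 336 in T-NP, with a limma log2 fold change of 1.0 (95% CI 0.42 to 1.57, adjusted p = 0.59). Itga6, Lama5 and Itgb1 differed by -0.08 (95% CI -0.48 to 0.32), -0.09 (-0.60 to 0.41) and -0.31 (-0.76 to 0.14), whereas the interval of Lamb3 ran from -0.41 to 3.93, so a large difference in that chain was not detectable with 4 tumors each. The test of whether the tumor-gland difference itself differed between genotypes called 0 of 36 members by limma (3 at an unadjusted p under 0.05), where 0% of all genes were called, and 0 by edgeR and by DESeq2.

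Partners of the 2 families were counted from a list of 53 adhesion genes, of which 52 were tested. In T-N against MG-N 14 rose and 16 fell, and in T-NP against MG-NP 10 rose and 16 fell, beside the shares of all genes given above. Among the largest changes, Npnt (nephronectin, the ligand of Itga8) rose by 4.93 (adjusted p = 0.00317) and 4.86 (adjusted p = 1.18e-05), from 130 to 1691 in the glands of tumor-bearing mice to 2008 to 24085 in tumors. Col4a5, a basement membrane collagen chain, rose by 2.68 and 2.67 (adjusted p = 0.000202 and 0.000157), and Spp1, osteopontin, by 4.74 in T-N (adjusted p = 0.00615). Sdc4, a heparan sulfate receptor for laminin, rose by 2.32 in T-NP (adjusted p = 1.35e-05). Col17a1, the transmembrane collagen of the hemidesmosome, fell by -7.02 and -6.34 (adjusted p = 7.24e-05 and 2.94e-05) to 1.05 to 11.7 in tumors, the same direction as Lama3 and the opposite of Itga6 and Itgb4. Tns1, which ties the integrin tail to actin, fell by -4.59 and -4.58 (adjusted p = 0.000106 and 4.4e-06), and Lims2, an adaptor of the integrin-linked kinase complex, by -4.44 and -3.92 (adjusted p = 0.00011 and 6.87e-06). By list, tail-binding adaptors gave 3 and 4 rises and 6 and 4 falls of 15, focal adhesion kinases and scaffolds 4 and 2 rises and 1 and 2 falls of 9, and other basement membrane components 2 and 1 rises and 4 and 4 falls of 10. Hemidesmosome partners gave 0 and 0 rises and 1 and 2 falls of 4, laminin receptors outside the integrins 1 and 1 rises and 0 falls of 4, and other ligands and counter-receptors 4 and 2 rises and 4 and 4 falls of 10.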

How the data were processed

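RNA sequencing libraries of 19 mouse glands and tumors were made with a TruSeq kit, stranded total RNA per the labels and mRNA per the methods, and read as 75-base pairs. The authors aligned reads with TopHat2 2.1.1 and Bowtie2 to GRCm38 (mm10) and deposited counts divided by DESeq2 size factors, a normalized signal per gene. The counting tool, its annotation and its use of strand were not given in the sources used here. Divided by the smallest step of their library, 100.0% of the deposited values in each library came out as whole reads (within 0.05 of a read). Of 46078 identifiers, 98.16% matched a symbol, and 849 did not. Depth was 20899152 to 62645459 reads, which limits the precision of low genes.

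Log2(normalized count + 1) was tested with limma 3.58.1 (trended variance, R 4.3.3), keeping genes with at least 10 normalized counts in as many samples as the smaller group holds, with Benjamini-Hochberg adjustment over all genes kept and a threshold of 0.05. A fold change on this scale understates that of low genes. Only the groups compared entered each fit. Levels between genes were compared per 1000 exon bases, merging the exons of all annotated transcripts of a gene. A single transcript can be shorter, so ranks, shares and ratios between genes depend on these lengths. edgeR 4.0.16 and DESeq2 1.42.0 on the recovered reads, other pseudocounts (0.5 and 5), filters (none, or a mean of 50), scaling, a 2-fold minimum, a muscle term, a replicate block and leaving out each library were alternatives. The fits were tested on simulated data. Whether replicates came from separate animals was not given, so p-values measure the spread between these samples. Members, partner lists, marker lists and the rule for named genes (all members, and the 3 partners with the largest called rise and fall) were chosen with earlier results of these data known. Of the genes listed, 1 taken by the rule and 1 marker gene are not reported here.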

Additional observations from a re-analysis of the deposited data

Results flagged for a closer look

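In 4 of 143 groups of 4 libraries tested, 1 library stood apart from the other 3 by more than Dixon's 95% critical value (the gap to the nearest library as a share of the range). About 1 in 20 groups, here 7.2, would do so by chance. Itga3 was lowest in MG-NP 4, at 510.1 normalized counts against 925.2, 974.9 and 1041. Itga5 was highest in MG-N 2, at 1669 against 622.8, 714.7 and 651.9. Itgax was highest in T-N 2, at 1173 against 724.9, 721.0 and 664.1. Lama1 was highest in T-NP 3, at 976.7 against 306.1, 319.6 and 342.1.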

How the results depend on the processing

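In the comparisons of tumors with glands and of glands with MG-WT, only members called by the main test were repeated. A member that gained a call there was not counted. In the comparisons of genotypes, only members called under at least 1 setting were repeated. Of 2420 such tests of single members, 2241 kept their direction and side of the threshold, 174 lost the call, 4 gained it and 1 reversed. The reversed value was Itga2 in MG-NP against MG-WT, at 0.53 with the muscle term against -1.27. With that term 5 members rose and 9 fell in T-NP against MG-NP, and 4 and 3 in MG-NP against MG-WT. Calls over all genes dropped as well, to 2007 rises and 2635 falls of 17880, and to 950 and 1298 of 19065. Requiring a 2-fold change left 6 rises in T-NP against MG-NP and 4 in tumors against MG-WT, and a single fit of all 5 groups gave 7 rises in MG-N against MG-WT. Over all genes, the 2-fold minimum took these rises from 4689 to 2625 and from 5626 to 3526. The single fit took them from 5697 to 4584. With only MG-NP 1 and 3, chosen after seeing the data, 13 rose in MG-NP against MG-WT. Rises over all genes went from 4268 to 5004 in that run. DESeq2 gave 1 rise and 2 falls in MG-NP against MG-N and 1 rise in T-NP against T-N. The cause of these shifts was not tested. Counting T-NP 1 and 2 as 1 sample gave 10 rises and 10 falls in T-NP against MG-NP. Over all genes that gave 4195 rises and 5128 falls of 18596, against 4689 and 5240 of 17880 by the main test.

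Leaving out 1 library gave 9 to 12 rises and 12 to 16 falls in T-N against MG-N, 10 to 11 and 9 to 15 in T-NP against MG-NP, 8 to 13 and 11 to 15 in MG-N against MG-WT, 6 to 9 and 12 to 13 in MG-NP against MG-WT, and 6 to 9 and 15 to 18 in tumors against MG-WT. Over all genes, the same runs gave 3379 to 4256 rises (main test 4217) and 4212 to 5398 falls (4983) in T-N against MG-N. In T-NP against MG-NP they gave 3968 to 4639 (4689) and 4794 to 5298 (5240). In MG-N against MG-WT they gave 4899 to 5416 (5697) and 4602 to 5493 (5544). In MG-NP against MG-WT they gave 2815 to 4341 (4268) and 3281 to 4694 (4585). In tumors against MG-WT they gave 4841 to 5840 (5626) and 5565 to 6498 (6381). The comparisons of genotypes and the interaction kept 0 calls of members. A replicate block gave 10 rises and 15 falls in T-N against MG-N, 10 and 13 in T-NP against MG-NP, 10 and 12 in MG-N against MG-WT, 6 and 12 in MG-NP against MG-WT, 8 and 16 in tumors against MG-WT, and 0 elsewhere. Over all genes and in the same order, it gave 3444 and 4299, 4210 and 4802, 4972 and 4818, 2979 and 3525, and 5271 and 5997. Libraries of the same number correlated at -0.251 to 0.289 in their deviations from the group means. With few libraries per group and tissues of differing makeup, these values cannot show whether libraries of the same number share an animal. MG-WT was read more deeply than the other groups, and Itgad and tumor Lamc3 rest on few reads.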
